A study of Mus musculus with 25 samples.

Results

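Glycolysis splits glucose into pyruvate, and the pentose phosphate pathway branches off after its first step to supply NADPH and ribose. The genes described here are 32 genes of these pathways and their immediate surroundings, chosen by name from a list of 33 symbols in which Pkm and Pkm2 stand for the same gene. The tables of gene levels held 22985 symbols, of which 11532 were tested, and all 32 genes were among those tested. They comprise 4 carriers of glucose or lactate, 9 enzymes of upper glycolysis, 6 of lower glycolysis, the 2 lactate dehydrogenase subunits, 4 pentose phosphate enzymes, 2 enzymes of side branches, 1 pyruvate dehydrogenase subunit and 4 regulators.

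RNA-seq was made from regulatory T cells (Treg, the suppressive T cells defined by the transcription factor Foxp3) and conventional T cells (Tconv) of C57BL/6 spleen and lymph node. NF-kB is a family of transcription factors activated through the T cell receptor, and p65 and c-Rel are 2 of its subunits, encoded by Rela and Rel. Unstimulated groups were WT Treg (4 libraries), p65KO Treg (3), c-RelKO Treg (2), Treg lacking both subunits (p65 c-Rel DKO, here DKO, 2) and WT Tconv (2). Stimulated groups were kept for 3 h in IL-2 with antibodies to CD3 and CD28 at 2 µg/ml: WT Tconv (2), WT Treg (2), DKO Treg (2), p65KO Treg (1) and c-RelKO Treg (1). A further 4 libraries, 1 per group, belong to a set with deletion induced by tat-cre: Treg of genotype FoxP3 del, Treg of genotype NF-kB del, and WT Treg and WT Tconv as controls without deletion. All 4 were stimulated in the same way for 3 h. The labels say nothing of the age or sex of the mice, of which Cre line or exon was involved, or of whether replicates came from separate animals. All p-values therefore measure the spread between these libraries, which may be technical. Outside the tat-cre set the labels number the libraries in 4 unbroken stretches, called run 1 to run 4 here, and do not say whether these are batches.

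The labels were first checked against the targeted genes. Rel lay between 1.76 and 2.23 FPKM in every c-RelKO and DKO library and between 27.5 and 298 FPKM in the WT Treg libraries. Rela lay between 56.3 and 107 FPKM in the p65KO and DKO libraries and between 64.9 and 129.7 FPKM in WT Treg. These ranges overlapped, but each p65KO or DKO library was below the WT Treg library of its run and stimulation. Unstimulated p65KO Treg had 58.0 against 64.9 FPKM in run 1, 69.3 against 99.1 in run 2 and 79.8 against 124 in run 4. Unstimulated DKO Treg had 76.1 against 129.7 FPKM in run 3 and 56.3 against 124 in run 4. Transcript remained in all of them, so the level does not by itself check the p65 deletion. The sources used here do not give the part of the gene that was removed. Foxp3, the defining Treg gene, was at 129 to 351 FPKM in unstimulated WT Treg, 0.54 to 0.93 in unstimulated Tconv, and only 8.01 and 21.2 in the unstimulated DKO Treg. Among the 21 libraries outside the tat-cre set, markers of other cells were high in 3. The summed level of 6 erythroid genes was 17866 FPKM and that of 7 myeloid genes 1634 FPKM in c-RelKO Treg 2, the myeloid sum was 720.4 FPKM in p65KO Treg 3, and 5 B cell genes summed to 58.5 FPKM in WT Treg 1. Erythroid sums of 522 FPKM in WT Treg 2 and 355 in DKO Treg stim 2 were the next highest of these 21. Results that rest on the first 3 libraries, chosen after these sums were seen, are given with and without them. The depth implied by the deposited confidence bounds was 15.4 to 52.8 M fragments (M, 1e6) per library.

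Most glucose in resting T cells is oxidised, and activated T cells are known for a switch to aerobic glycolysis, in which much of the pyruvate becomes lactate. Hexokinases trap glucose as glucose 6-phosphate, phosphofructokinase commits it to glycolysis, the steps from glyceraldehyde 3-phosphate dehydrogenase to pyruvate kinase yield ATP, and lactate dehydrogenase regenerates NAD+. The transcription factors HIF-1 and Myc are known activators of many of these genes.

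The promoters of Ldha and Aldoa are shown because both genes were among the members with the smallest p in the comparison of DKO with WT Treg, where many members moved together. The 250 bases before each annotated start are printed 5′ to 3′ on the gene's own strand, from RefSeq on build GRCm38.p6. Ldha lies at chr7:46845554-46845803 on the plus strand and Aldoa at chr7:126799255-126799504 on the minus strand. Capitals mark every match of the core of the HIF response element, searched as ACGTG or GCGTG on both strands; where a match lies in the palindromic E-box CACGTG, a Myc motif that itself contains ACGTG, the whole E-box is in capitals.
Ldha promoter: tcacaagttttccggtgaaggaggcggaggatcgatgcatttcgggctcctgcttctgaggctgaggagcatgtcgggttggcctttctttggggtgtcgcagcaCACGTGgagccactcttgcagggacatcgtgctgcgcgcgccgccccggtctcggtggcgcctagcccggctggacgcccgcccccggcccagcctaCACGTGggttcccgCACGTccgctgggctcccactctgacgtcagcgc
Aldoa promoter: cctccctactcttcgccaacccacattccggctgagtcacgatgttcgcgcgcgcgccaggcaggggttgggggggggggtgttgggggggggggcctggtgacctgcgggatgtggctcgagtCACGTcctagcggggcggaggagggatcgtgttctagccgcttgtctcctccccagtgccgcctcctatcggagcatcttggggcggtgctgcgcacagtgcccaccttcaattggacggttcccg
In these windows the Ldha promoter held 5 core matches and 2 E-boxes, and the Aldoa promoter held 1 core match and no E-box. Each palindromic E-box counts as 2 core matches, 1 per strand. The stretch shown is 1 of 2 annotated for Ldha and 1 of 3 for Aldoa, and another Aldoa window had no core match. Over RefSeq windows of 300 bases (250 before to 50 after a start), 31 of the 32 members matched, with 45 windows. The core occurred in 36 of these 45 windows (80%) and in 43.8% of all 32851 windows. The E-box occurred in 5 (11.1%) against 7.15% of all windows, and the NF-kB consensus, searched on both strands, in 1 (2.22%, that of Pgm2) against 4.51% of all. Windows of the same gene can overlap, the core holds a CpG dinucleotide that is frequent in CpG-rich promoters, and a match is a description of the letters and not a site.

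Levels are given in FPKM, fragments per kilobase and per M fragments sequenced, which allows genes to be compared per length. Across the 21 libraries outside the tat-cre set, the median level of Ldha, which turns pyruvate into lactate, was the highest of all members at 331 FPKM. Hif1a (304), Aldoa (271), Pkm2 (263) and Gapdh (201) followed. Aldoc (1.601), Pfkfb4 (2.59) and Pfkm (2.63) had the lowest medians. Hk2, the inducible hexokinase, had the widest range, from 0.556 FPKM in WT Tconv 2 to 75.8 in DKO Treg stim 1. Pdha1, the catalytic subunit of pyruvate dehydrogenase, had the narrowest, from 57.98 to 97.2. The summed FPKM of all 32 members was 1312 and 1452 in Tconv, 1908 to 2072 in the 4 WT Treg libraries, and 4201 and 4371 in DKO Treg. Over all 25 libraries, 7 genes had under 100 implied fragments in some library (Hk2, Pfkm, Pfkfb4, Aldoc, Eno1, Eno3 and Ldhb), and such values carry the most counting error. For Ldhb this held only in the tat-cre set. Outside that set Ldhb had at least 185 implied fragments and Slc16a3 at least 123.

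**Figure D1:**
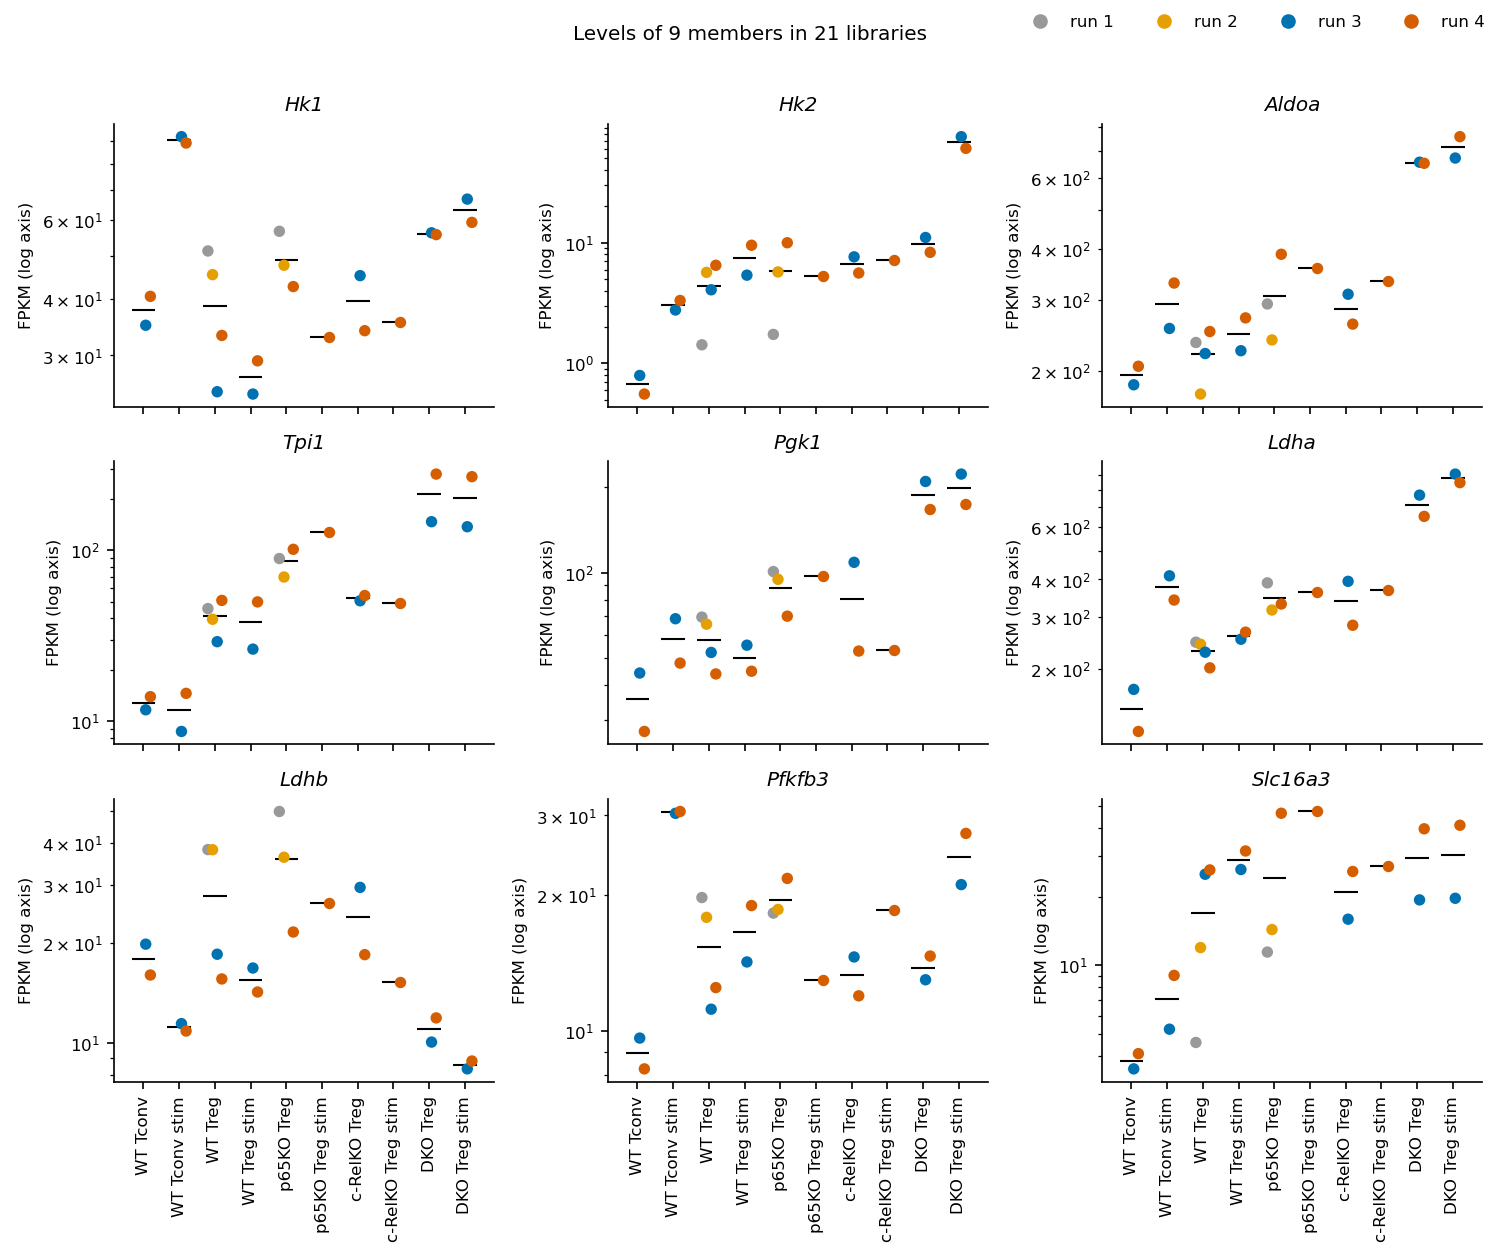
FPKM of 9 members (log axis) in each library of 10 groups; each point is 1 library, coloured by run, and the bar is the group mean. Hk2 is highest in the stimulated DKO libraries (60.7 and 75.8 FPKM), and Aldoa, Tpi1, Pgk1 and Ldha are higher in every DKO library than in any WT Treg library.

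The clearest difference was between unstimulated DKO and WT Treg: 12 of the 32 members were higher and 3 lower in Treg lacking p65 and c-Rel (limma on log2(FPKM + 1), adjusted p under 0.05). Over all 11532 genes, 19.4% were called higher and 13.6% lower. The members' median log2 difference was 0.69, against 0.06 over all genes tested. In bulk RNA, a change in the share of a cell type and a change in RNA per cell cannot be told apart.

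In upper glycolysis 3 of 9 genes rose. Aldoa, the aldolase that cleaves fructose 1,6-bisphosphate (mm9 chromosome 7, 133938747 to 133943961), was at 235, 175, 221 and 250.3 FPKM in WT Treg and 656 and 652 in DKO Treg, a log2 difference of 1.58 (SE 0.21, adjusted p = 8.94e-05). The lowest DKO value was above the highest WT value, and the pairs within run 3 and run 4 differed by 1.57 and 1.38. Tpi1, triose phosphate isomerase (mm9 chromosome 6, 124760609 to 124764314), went from 45.6, 39.5, 29.2 and 50.9 FPKM to 147 and 278, a log2 difference of 2.29 (SE 0.34, adjusted p = 2.33e-04). Its 2 DKO libraries differed widely, but both lay well above all WT libraries, and the within-run differences were 2.29 and 2.43. Pfkp, the platelet-type phosphofructokinase (mm9 chromosome 13, 6579119 to 6647970), was at 33.3, 40.9, 43.7 and 47.99 FPKM in WT Treg and 74.4 and 88.02 in DKO Treg, a log2 difference of 0.96 (SE 0.15, adjusted p = 3.48e-04). Its groups did not overlap either. The other phosphofructokinase genes, Pfkl and Pfkm, did not pass the test (log2 0.33 and -0.32), nor did the hexokinases Hk1 (0.57) and Hk2 (1.09), Gpi1 (0.50) or Aldoc (0.25).

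In lower glycolysis 4 of 6 genes rose and 1 fell. Pkm2, pyruvate kinase (mm9 chromosome 9, 59504174 to 59527182), was at 271, 231, 201 and 221 FPKM in WT Treg and 549.8 and 600.4 in DKO Treg, a log2 difference of 1.32 (SE 0.15, adjusted p = 3.91e-05). The 2 groups were far apart and the within-run differences nearly equal, at 1.45 and 1.44. Pgk1, Pgam1 and Gapdh, which act between triose phosphate and enolase, rose by 1.70, 1.34 and 1.26 on the log2 scale. Eno3, the muscle-type enolase, fell by 2.05, from 25.9, 18.04, 7.66 and 8.697 FPKM to 1.88 and 3.19; its WT libraries of runs 1 and 2 were higher than those of runs 3 and 4, and within runs 3 and 4 it differed by -1.59 and -1.21. The main enolase gene, Eno1, was at only 8.54, 11.9, 3.37 and 2.02 FPKM in WT Treg and 22.7 and 4.48 in DKO Treg, low for a glycolytic enzyme and uneven within groups. Eno1 has near-identical copies in the genome between which reads may be divided, so its level is uncertain.

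The 2 lactate dehydrogenase subunits moved in opposite directions. Ldha (mm9 chromosome 7, 54101173 to 54110997), whose promoter is printed above, had the smallest p of all members: 246, 242, 228 and 202 FPKM in WT Treg and 768 and 651 in DKO Treg, a log2 difference of 1.62 (SE 0.19, adjusted p = 3.59e-05). Each DKO library was more than 2 times as high as the highest WT library, and the within-run differences were 1.75 and 1.68. Ldhb, the heart-type subunit that favours the conversion of lactate to pyruvate, fell by 1.15 on the log2 scale, from 38.2, 38.2, 18.5 and 15.6 FPKM to 10.1 and 11.9. As with Eno3, the WT libraries of runs 1 and 2 were the highest, and the within-run differences were smaller, at -0.82 and -0.36.

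Of the 4 pentose phosphate enzymes, 3 rose: Pgd by 0.93, Tkt by 0.88 and G6pdx, the first enzyme of the oxidative branch, by 0.66 on the log2 scale. Taldo1 (log2 0.76) did not pass. Pgm2, the phosphoglucomutase now named Pgm1 in RefSeq, which links glucose 6-phosphate with glycogen, rose by 1.04. None of the 4 carriers of glucose and lactate passed, with log2 differences from -0.36 for Slc2a3 to 0.94 for Slc16a3, and neither did Pdha1 (-0.09). Among the regulators, Pfkfb4, an enzyme that sets the level of the phosphofructokinase activator fructose 2,6-bisphosphate, fell by 0.69. Hif1a (0.73), Pfkfb3 (-0.11) and Pdk1 (-0.58) did not pass. The differences of Slc2a3, Pfkm, Pfkfb3, Pdk1 and Pdha1 were positive with the run as a block, where none of the 5 passed, so no direction is given for them. Nor is a direction given for Hif1a, which differed by 0.30 and -0.03 within runs 3 and 4, or for Slc16a3, at -0.36 and 0.58.

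**Figure D2:**
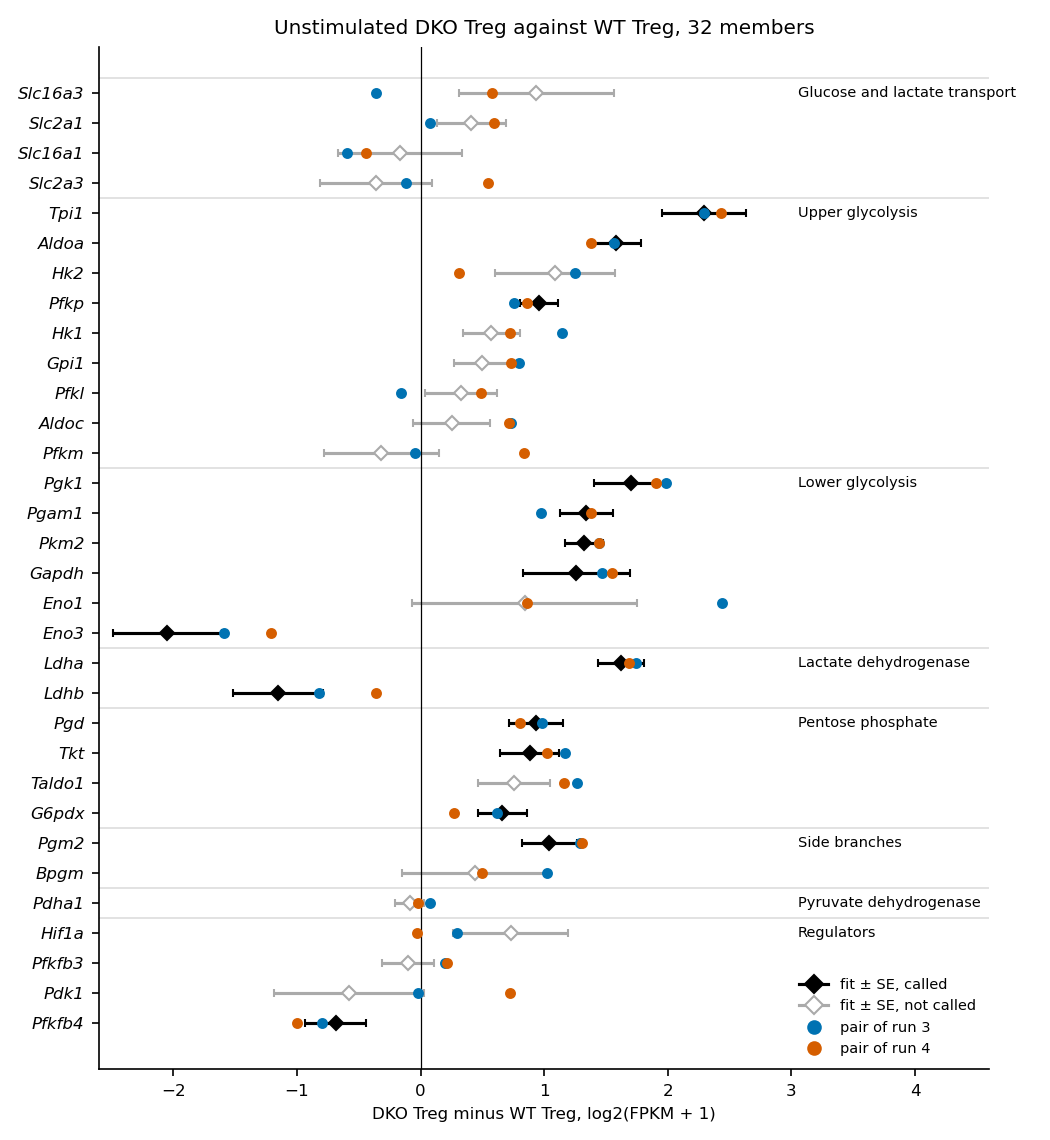
Log2 difference of FPKM + 1 between unstimulated DKO and WT Treg for the 32 members, ordered by role; diamonds with bars are the fitted difference ± SE (black where called), and coloured points are the library pairs of run 3 and run 4. Tpi1 (2.29), Pgk1 (1.70) and Ldha (1.62) stand farthest to the right, and Eno3 (-2.05) farthest to the left.

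Within run 3 and within run 4, 21 of the 32 members were higher in DKO than in WT Treg in both runs, against 51.9% of all genes. Without DKO Treg 2, which left 1 DKO library, the members' median log2 difference was 0.65, against 0.05 over all genes. The count of called members was 18 (15 higher and 3 lower) without WT Treg 1 and the other libraries high in markers of other cells. In that fit 3023 of 11326 genes were called higher and 1866 lower, against 2239 and 1564 of 11532 with all libraries. Genes of the cell cycle moved with this comparison. The summed level of 20 cell cycle genes was 442 to 681 FPKM in WT Treg and 2045 and 2907 FPKM in DKO Treg. Foxp3 was low in DKO Treg as given above. A list of 6 CD8 and NK genes summed to 8.92 to 24.01 FPKM in WT and to 38.1 and 65.6 in DKO. Of these 6 genes, 4 and 3 were under 1 FPKM in DKO Treg 1 and DKO Treg 2. Cd8a was at 0.0712 and 0.194 FPKM in DKO and at 0.149 to 2.77 in WT Treg. The part of all these genes in the result was not tested. Myc, an activator of glycolytic genes, was lower in DKO Treg, at 44.6 and 43.2 FPKM against 63.0, 143, 267 and 270.1 in WT Treg (log2 difference -1.84, SE 0.48, adjusted p = 0.00928).

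Loss of a single subunit gave no called member. These comparisons and that of DKO use the same WT Treg libraries, so their values are given side by side and not as separate support. In p65KO against WT Treg, 0 members passed, as did few genes in all (0.0347% called higher and 0.00867% lower); 9 members and 1130 genes had an unadjusted p under 0.05. Ldha was at 389.7, 316 and 331 FPKM in p65KO Treg, each above the 4 WT values, a log2 difference of 0.58 (SE 0.16, adjusted p = 0.242). Tpi1 was at 89.4, 69.7 and 101 FPKM, a log2 difference of 1.06 (SE 0.30, adjusted p = 0.242), and its groups did not overlap. The members' median was 0.37 against 0.10 over all genes, and 20 of 32 were higher in p65KO within each of runs 1, 2 and 4, against 32.5% of all genes.

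Libraries of p65KO and WT Treg from the same run deviated together, and with the run as a replicate block 12 members were called higher and 0 lower, against 7.08% of all genes called higher in that fit. With the block, Ldha differed by 0.61 (SE 0.11, adjusted p = 0.0133) and Tpi1 by 0.94 (SE 0.15, adjusted p = 0.0103). The others called were Pfkp, Aldoa, Aldoc, Gapdh, Pgk1, Pgam1, Pkm2, Hif1a, G6pdx and Pgd. Without WT Treg 1, p65KO Treg 3 and c-RelKO Treg 2, the libraries high in markers of other cells, 2 members passed without the block. These were Aldoc and Pkm2, both higher, against 426 of 11326 genes called higher and 62 lower. With the block 0 members passed, and 2 genes were called higher and 3 lower. For this comparison only the pair of run 2 then shared a run. The members' median was 0.12 in that fit, against 0.31 with the block over all libraries. The reason for this change was not tested. Cell cycle genes summed to 777 to 1132 FPKM in p65KO Treg, above all WT Treg libraries; their part in the result was not tested.

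In c-RelKO against WT Treg, 0 members were called in either direction, while 1.62% of all genes were called higher and 8.98% lower; 5 members and 3008 genes had an unadjusted p under 0.05. Ldha was at 394 and 281 FPKM, both above the 4 WT values, a log2 difference of 0.54 (SE 0.19, adjusted p = 0.0841). Pfkp was at 52.01 and 55.4 FPKM, also above all WT values, a log2 difference of 0.38 (SE 0.15, adjusted p = 0.131). The members' median was 0.29 against -0.13 over all genes, and 23 members were higher within both shared runs, against 33.5% of all genes. With the run as a block 14 members rose and 1 fell, against 15.8% and 25.9% of all genes. Cell cycle genes summed to 864 and 699 FPKM in c-RelKO Treg, above the 442 to 681 FPKM of WT Treg, and their part in the result was not tested. Dividing by size factors shifted the median of all genes from -0.13 to 0.03, changed the calls over all genes from 187 higher and 1036 lower to 395 and 700, and called 2 members, Ldha and Pkm2, both higher. Bpgm, which makes 2,3-bisphosphoglycerate and is abundant in red cells, had a log2 difference of 1.42 that came from the library with the high erythroid sum: it was at 8.93 and 97.4 FPKM in the 2 c-RelKO libraries. Bpgm was the 1 member called without c-RelKO Treg 1, and no member was called without c-RelKO Treg 2.

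DKO was also compared directly with c-RelKO Treg, which by its label differs from it by the loss of p65. Foxp3 differed as well, at 8.01 and 21.2 FPKM in DKO Treg and 136 and 254 in c-RelKO Treg. Its part in the result was not tested. In this comparison 8 members (25%) were higher and 1 (3.12%) lower in DKO, against 19.5% and 5.91% of all genes. These shares were near the background. The members' median was 0.42 against 0.25 over all genes. The higher members were Pgm2 and 7 enzymes between phosphofructokinase and lactate dehydrogenase (Pfkp, Aldoa, Tpi1, Pgk1, Pgam1, Pkm2 and Ldha), and the lower one was Eno3. Pkm2 was at 341 and 263 FPKM in c-RelKO Treg, below both DKO values, a log2 difference of 0.94 (SE 0.18, adjusted p = 0.00265). Ldha differed by 1.08 (SE 0.22, adjusted p = 0.00336), from the c-RelKO and DKO levels already given. Aldoa was at 309.5 and 261 FPKM in c-RelKO Treg and differed by 1.20 (SE 0.24, adjusted p = 0.00342). For these 3 genes both DKO libraries exceeded both c-RelKO libraries. Tpi1, at 50.6 and 54.3 FPKM in c-RelKO Treg, differed by 1.93 (SE 0.40, adjusted p = 0.00399), and Pgm2, at 16.8 and 14.9 against 29.9 and 38.9 in DKO, by 1.06 (SE 0.25, adjusted p = 0.00959). Within both runs 19 members (59.4%) were higher, against 55% of all genes, a share near the background. Size factors changed the calls over all genes from 2254 higher and 681 lower to 1196 and 1045, and those of members to 6 higher and 3 lower. In the blocked fit 13 members (40.6%) were called higher and 5 (15.6%) lower, against 42.5% and 17.8% of all genes, again near the background. Without DKO Treg 2 the members' median was 0.33, against 0.22 over all genes. Without c-RelKO Treg 2 it was 0.30, against 0.23 over all genes. Cell cycle genes summed to 2045 and 2907 FPKM in DKO Treg and to 864 and 699 in c-RelKO Treg, and c-RelKO Treg 2 held the high erythroid and myeloid sums. Without the 3 libraries high in markers of other cells, which left 1 c-RelKO library, the members' median was 0.30, against 0.24 over all genes. The part of the cell cycle genes was not tested.

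WT Treg and WT Tconv differed before stimulation in 4 members, all higher in Treg, against 7.03% of all genes called higher and 5.53% lower. Tpi1 was at 11.7 and 13.9 FPKM in Tconv, below every Treg library, and differed by 1.59 (SE 0.34, adjusted p = 0.00794). Hk2 was at 0.793 and 0.556 FPKM in Tconv and 1.43, 5.68, 4.07 and 6.502 in Treg, a log2 difference of 1.58 (SE 0.49, adjusted p = 0.04898). Among unstimulated libraries the Tconv values of both genes were the lowest. Ldha was at 171 and 124 FPKM in Tconv and differed by 0.65 (SE 0.19, adjusted p = 0.0358). Pfkfb3, the kinase-type enzyme that makes fructose 2,6-bisphosphate, was at 9.65 and 8.25 FPKM in Tconv and 19.7, 17.9, 11.2 and 12.5 in Treg, a log2 difference of 0.68 (SE 0.21, adjusted p = 0.0485). The groups did not overlap for any of these 4 genes. Within run 3 and run 4, Pfkfb3 differed by 0.19 and 0.54; its call was lost with the run as a block, at 0.53 (SE 0.20, adjusted p = 0.0507), and with runs 3 and 4 only. With the block 16 members were called higher and 2 lower (Pdk1 and Taldo1), against 19.5% and 26.4% of all genes. The members' median was 0.54 against 0.00 over all genes, and 20 members were higher in Treg within both shared runs, against 36.7% of all genes. The count without the block rested on single libraries, and calls over all genes moved too. It was 1 (Tpi1) without WT Treg 2, where 583 of 11514 genes were called higher and 435 lower. Without WT Treg 1 it was 9 (8 higher, 1 lower), against 1017 and 1297 of 11424. Without the 3 libraries high in markers of other cells it was 12 (10 higher, 2 lower), against 1113 and 1330 of 11326. Without WT Tconv 1 or WT Tconv 2, which left 1 Tconv library, the members' median was 0.55 or 0.36. Over all genes it was 0.006 or -0.007.

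Stimulation for 3 h raised 4 members in WT Tconv and lowered none, against 6.69% of all genes called higher and 5.16% lower. Pfkfb3 went from 9.65 and 8.25 FPKM to 30.3 and 30.6, a log2 difference of 1.66 (SE 0.24, adjusted p = 7.05e-04). Ldha went from 171 and 124 to 412 and 341 FPKM, a log2 difference of 1.36 (SE 0.22, adjusted p = 0.00123). After stimulation both genes were above every unstimulated WT Treg library. Pgam1, phosphoglycerate mutase (mm9 chromosome 19, 41986360 to 41993155), went from 39.1 and 33.6 to 96.1 and 95.8 FPKM, a log2 difference of 1.38 (SE 0.25, adjusted p = 0.00277). Hk1, the constitutively expressed hexokinase (mm9 chromosome 10, 61731602 to 61842656), went from 35.02 and 40.6 to 91.8 and 88.9 FPKM, a log2 difference of 1.24 (SE 0.26, adjusted p = 0.00788). In all 4 genes both stimulated libraries lay above both unstimulated ones. The call of Hk1 was lost without WT Tconv 1 (log2 1.14, adjusted p = 0.0745) or WT Tconv stim 1 (log2 1.22, adjusted p = 0.0655).

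Slc16a1, the lactate carrier MCT1, had a large difference that did not pass (log2 1.69 (SE 0.58, adjusted p = 0.07503)), although its pairs in run 3 and run 4 differed by 1.57 and 1.81. The members' median response in Tconv was 0.23 against -0.09 over all genes, and 17 members were higher in both runs, against 34.2% of all genes. With the run as a block 13 members rose and 5 fell, against 17.3% and 25.8% of all genes; those that fell were Gpi1, Pfkl, Ldhb, Pdk1 and Taldo1. Myc rose from 29.9 and 33.9 FPKM to 382 and 396 (log2 difference 3.57, SE 0.55, adjusted p = 0.00102).

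In WT Treg no member was called after the same stimulus, and limma called no gene at all (0% of 11532 in either direction). An unadjusted p under 0.05 was found for 311 genes and 0 members. With size factors or with the run as a block, 0 genes were called. With no gene called, the fit cannot show that the members stayed unchanged. Within both runs 13 members were higher and 13 lower. The members with the smallest p were Hk1, at 51.2, 45.4, 24.9 and 33.2 FPKM before and 24.6 and 29.2 after (log2 -0.46 (SE 0.23, adjusted p = 0.698)), and Pgam1, at 51.7, 50.1, 62.5 and 66.8 before and 71.8 and 82.8 after (log2 0.42 (SE 0.21, adjusted p = 0.698)). The Hk1 groups overlapped, and within runs 3 and 4 its differences were -0.02 and -0.18. The members' median was -0.17 against -0.09 over all genes, and it was 0.015 with runs 3 and 4 only.

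The difference between the Treg and the Tconv response was tested directly. It was called for 2 members, Hk1 and Pfkfb3, both lower in the Treg response, against 0.0867% of all genes called higher and 0.945% lower. For Hk1 the Treg response minus the Tconv response was -1.70 (SE 0.35, adjusted p = 0.0383), and for Pfkfb3 it was -1.53 (SE 0.32, adjusted p = 0.0402). Both genes rose in Tconv within each run, while their within-run differences in Treg were -0.02 and -0.18 for Hk1 and 0.32 and 0.57 for Pfkfb3. Ldha (-1.18) and Pgam1 (-0.96) had negative differences that did not pass. No member was called without any 1 of 7 of the 10 libraries involved (WT Treg 2 and all libraries of WT Tconv, WT Tconv stim and WT Treg stim), and Pfkfb3 alone was called without WT Treg 4. The block gave 5 called members, all lower in the Treg response (Hk1, Pfkfb3, Pgam1, Ldha and Slc16a1), against 8.26% of all genes.

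In DKO Treg Hk2 was the 1 member called after stimulation, and it rose, against 3.86% of all genes called higher and 6.13% lower. Hk2, the hexokinase typical of activated and growing cells (mm9 chromosome 6, 82675020 to 82724448), went from 11.1 and 8.33 FPKM to 75.8 and 60.7, a log2 difference of 2.70 (SE 0.56, adjusted p = 0.00884). The pairs of run 3 and run 4 differed by 2.67 and 2.72, and the stimulated values were the highest of Hk2 in any library. In WT Treg Hk2 was at 5.39 and 9.53 FPKM after stimulation. The adjusted p was between 0.0510 and 0.0711 without DKO Treg stim 1, DKO Treg stim 2 or DKO Treg 2, with log2 differences from 2.51 to 2.86. Over all members 14 were higher within both runs, against 25.4% of all genes, and the median was 0.02 against -0.19 over all genes; it was -0.18 without DKO Treg 1 and -0.26 without DKO Treg stim 2. With the run as a block 12 members were called: Hk2, Slc2a3, Pfkfb3, Pgam1 and Slc16a1 higher, against 11.3% of all genes, and Gpi1, Pfkfb4, Aldoc, Pdk1, Pdha1, Pgm2 and Taldo1 lower, against 30.8%. The pairs of run 3 and run 4 differed by 1.02 and 1.15 for Slc16a1, 0.58 and 0.56 for Pgam1 and -0.92 and -0.91 for Pdk1. Size factors changed the calls over all genes from 445 higher and 707 lower to 602 and 398.

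Tested as a difference between the DKO and the WT Treg response, 0 members were called, against 0.737% of all genes called higher and 0.234% lower; 1 member and 1197 genes had an unadjusted p under 0.05. Hk2 had a difference of 1.98 (SE 0.74, adjusted p = 0.3298), which passed with the run as a block, at 2.43 (SE 0.40, adjusted p = 0.00312), as did Slc16a1, against 4.54% of all genes called higher in that fit. The other member with the smallest p was Pfkfb3, at 12.99 and 14.7 FPKM in DKO Treg and 21.1 and 27.4 after stimulation, with a difference of 0.63 (SE 0.32, adjusted p = 0.551). Size factors changed the calls over all genes here from 85 higher and 27 lower to 104 and 9.

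**Figure D3:**
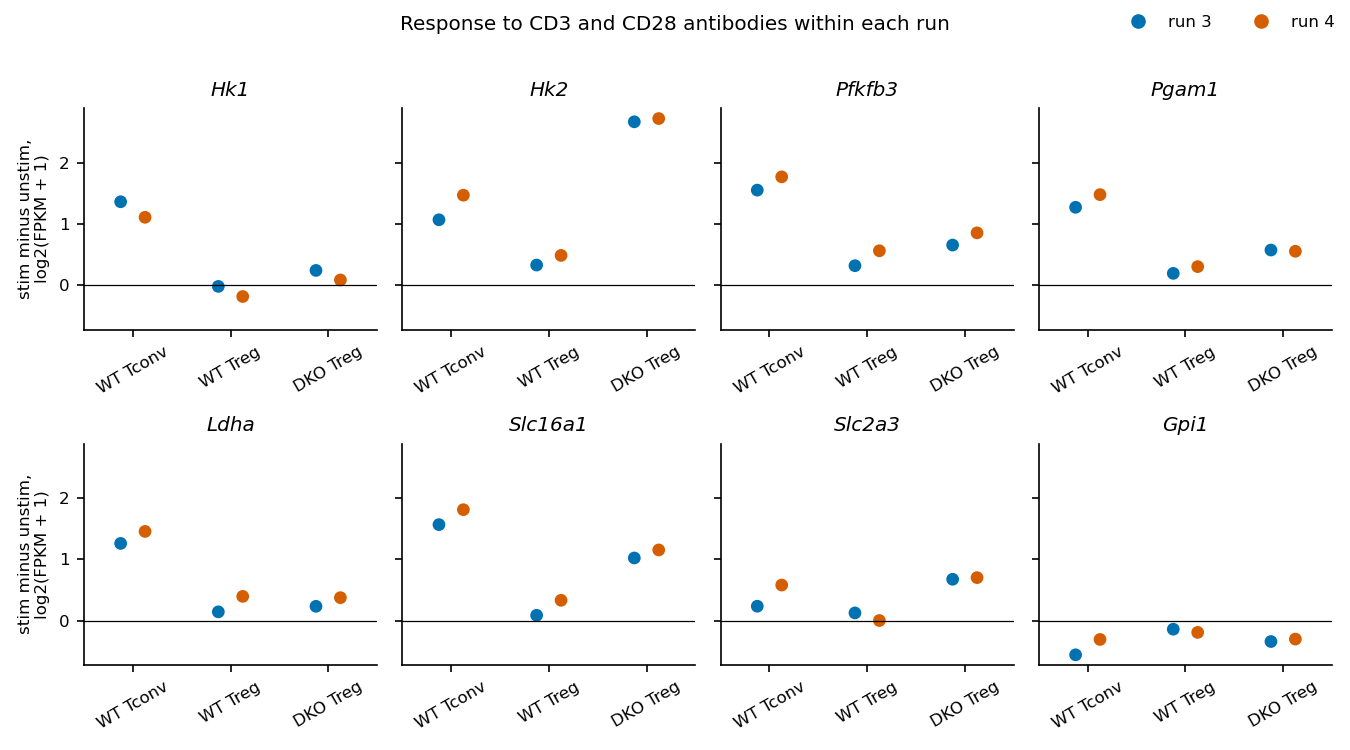
Log2 difference of FPKM + 1 between stimulated and unstimulated cells for 8 members, each point being the pair of libraries of run 3 or run 4 in WT Tconv, WT Treg or DKO Treg. Hk1 differs by 1.37 and 1.11 in Tconv and by -0.02 and -0.18 in WT Treg, and Hk2 differs by 2.67 and 2.72 in DKO Treg.

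Among stimulated cells, DKO Treg again had the higher levels: 12 members were higher and 2 lower than in stimulated WT Treg, against 16.6% and 16.2% of all genes. Pkm2 was at 207 and 223 FPKM in WT and 593 and 642 in DKO, a log2 difference of 1.52 (SE 0.18, adjusted p = 4.11e-05). Ldha was at 252 and 266 and 903 and 845 FPKM, a log2 difference of 1.75 (SE 0.22, adjusted p = 6.10e-05). Both genes were thus more than 2 times as high in each stimulated DKO library. Aldoa was at 224 and 271 and 672 and 759 FPKM (log2 1.53 (SE 0.24, adjusted p = 3.40e-04)), and Pgam1 at 71.8 and 82.8 and 185 and 258 (log2 1.49 (SE 0.25, adjusted p = 5.45e-04)). Tpi1 was at 26.4 and 49.9 FPKM in WT and 137 and 269 in DKO, a log2 difference of 2.37 (SE 0.40, adjusted p = 5.48e-04). Groups did not overlap for any of these 5 genes.

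The other 7 members that were higher in stimulated DKO Treg were Hk2 (3.07 on the log2 scale, the largest difference of any member), Pgk1 (1.96), Gapdh (1.53), Hk1 (1.20), Pfkp (1.04), Tkt (0.97) and Pgm2 (0.94). Eno3 and Pfkfb4 were lower, by 1.44 and 1.35. The members' median was 0.64 against 0.00 over all genes, and 23 were higher within both runs, against 43.1% of all genes. With the run as a block 22 members were higher and 4 lower, against 31.4% and 31.3% of all genes. Cell cycle genes summed to 1584 and 1794 FPKM in stimulated DKO Treg and to 441 and 507 in stimulated WT Treg; their part in the result was not tested.

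Stimulated WT Treg had 1 member higher than stimulated Tconv and 1 lower, against 3.62% and 3.02% of all genes. Hk1, at 91.8 and 88.9 FPKM in stimulated Tconv and 24.6 and 29.2 in stimulated Treg, was lower by 1.72 (SE 0.26, adjusted p = 0.00141). Tpi1, at 8.74 and 14.6 in Tconv and 26.4 and 49.9 in Treg, was higher by 1.60 (SE 0.40, adjusted p = 0.0251), a call lost without WT Tconv stim 1, WT Tconv stim 2 or WT Treg stim 2, after which 1 member remained called. Stimulation had not brought Tpi1 in Tconv to the Treg level. The fit with the block called 7 members higher and 4 lower (Hk1, Pfkfb3, Ldha and Pdk1), against 16.8% and 20.2% of all genes.

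The stimulated single knockouts had 1 library each, which the fit assumes to vary like the other groups. In p65KO against WT, 0 members were called, against 0.65% of all genes higher and 0.364% lower; 6 members and 1810 genes had an unadjusted p under 0.05. Pgm2 was at 27.7 FPKM in p65KO and 9.68 and 14.5 in WT (log2 1.16 (SE 0.31, adjusted p = 0.0803)), and Tpi1 was at 127 (log2 1.78 (SE 0.48, adjusted p = 0.0827)). Both lay above the 2 WT libraries. The fit with the block called 13 members higher in p65KO, against 19.8% of all genes. In c-RelKO against WT, 0 members were called, against 0.0607% of all genes higher and 0.286% lower; 0 members and 799 genes had an unadjusted p under 0.05. Ldha was at 369.9 FPKM (log2 0.51 (SE 0.26, adjusted p = 0.802)) and Tkt, transketolase, at 86.6 against 50.5 and 69.1 in WT (log2 0.54 (SE 0.33, adjusted p = 0.974)). With the block 2 members were called higher in c-RelKO, Ldha and Slc16a1, against 1.29% of all genes. Size factors changed the calls over all genes in the p65KO comparison from 75 higher and 42 lower to 112 and 126.

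**Figure D4:**
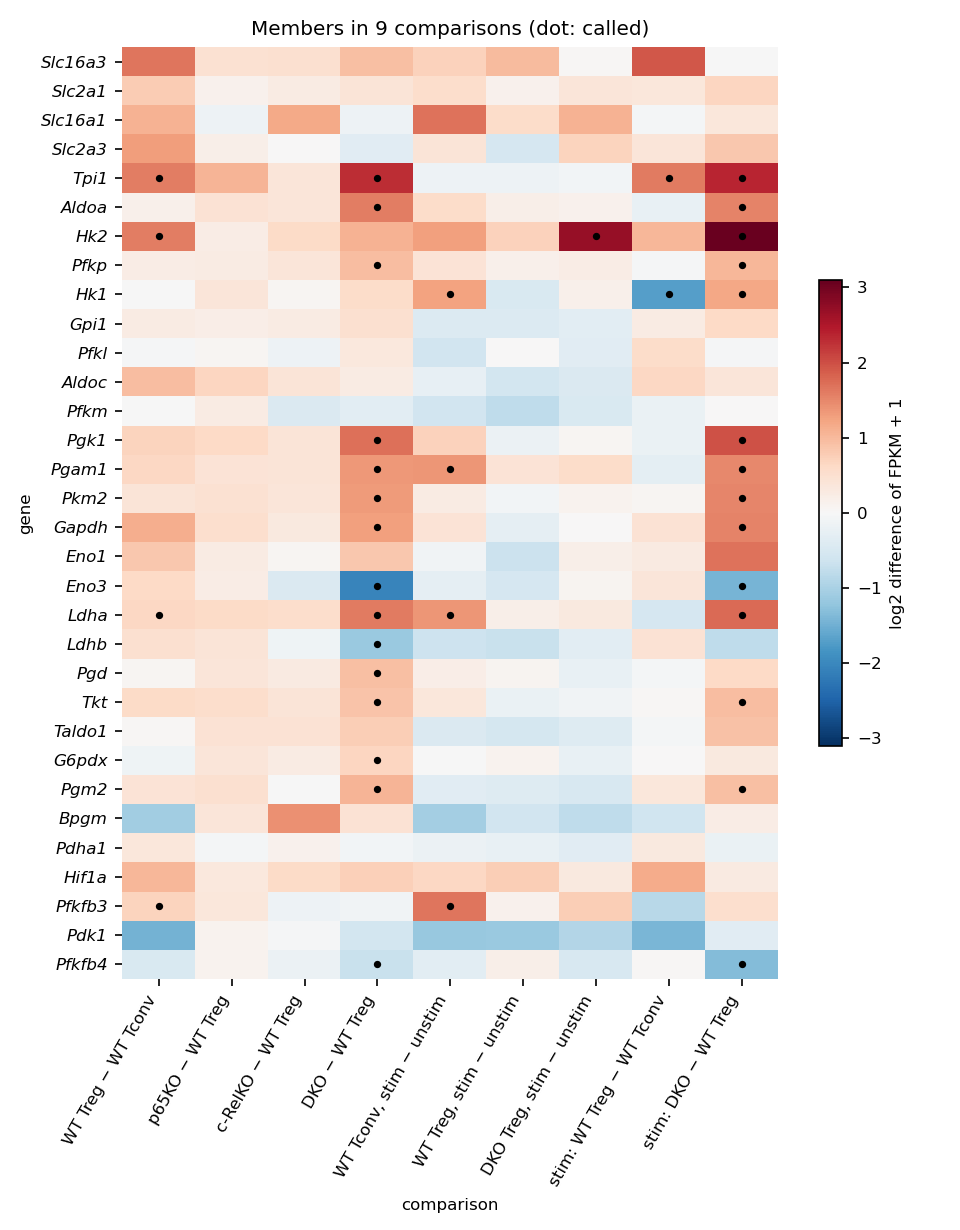
Fitted log2 difference of FPKM + 1 for the 32 members (rows) in 9 comparisons (columns), red where the first-named group is higher and blue where it is lower; a dot marks a called member. Dots are most frequent in the columns for DKO against WT Treg, with 15 before and 14 after stimulation, and absent from p65KO and c-RelKO against WT Treg and from stimulation in WT Treg.

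Where 2 genes encode the same step, their shares of the summed FPKM differed between groups. These shares use the values tested above and are given as a description. Hk2 made up 2.22% and 1.35% of hexokinase FPKM (Hk1 and Hk2) in Tconv, 2.71% to 16.4% in WT Treg and 53.2% and 50.6% in stimulated DKO Treg. Hk2 was the more abundant of the 2 genes in both stimulated DKO libraries and in no other library. Ldhb made up 10.4% and 11.5% of lactate dehydrogenase FPKM in Tconv and 2.70% and 3.08% in stimulated Tconv. In WT Treg its share was 13.4% and 13.6% in runs 1 and 2 and 7.50% and 7.16% in runs 3 and 4, and in DKO Treg it was 1.29% and 1.79%. Pfkp was the leading phosphofructokinase in every group, at 53.6% to 62.0% of the 3 genes in unstimulated WT cells. Stimulated DKO Treg had shares of 82.6% and 74.4%, unstimulated DKO Treg 75.6% and 65.3%, and stimulated Tconv 74.5% and 68.9%, so the ranges of these 3 groups overlapped.

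Related pathways were examined in the same comparison of unstimulated DKO with WT Treg, against the same 19.4% higher and 13.6% lower over all genes. Of 17 genes of the tricarboxylic acid cycle, 10 rose and 0 fell (median 0.65), among them Sdhd, a subunit of succinate dehydrogenase (log2 1.09, SE 0.14, adjusted p = 6.13e-05), and Cs, citrate synthase (log2 0.90, SE 0.13, adjusted p = 1.71e-04). Of 8 genes of serine synthesis and one-carbon metabolism, which draw on a glycolytic intermediate, 5 rose and 0 fell (median 0.89), led by Psat1 (log2 1.74, SE 0.28, adjusted p = 3.80e-04) and Mthfd2 (log2 1.05, SE 0.18, adjusted p = 6.56e-04). Of 20 cell cycle genes, 19 rose and 0 fell (median 2.97), such as Rrm1 (log2 2.32, SE 0.17, adjusted p = 1.62e-06) and Mcm6 (log2 1.42, SE 0.13, adjusted p = 6.57e-06).

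Other lists were mixed. Of 15 HIF pathway genes and hypoxia targets outside glycolysis, 6 rose and 3 fell with a median of -0.14, and Ero1l (log2 1.34, SE 0.26, adjusted p = 0.00132) and Ankrd37 (log2 1.99, SE 0.41, adjusted p = 0.00215) rose. Of 17 regulators of glucose use, 1 rose and 5 fell (median -0.24), among them Foxo1 (log2 -1.55, SE 0.21, adjusted p = 9.52e-05), a transcription factor of quiescent T cells, and Arrdc4 (log2 -1.45, SE 0.23, adjusted p = 4.14e-04). Of 16 further glycolysis and pentose phosphate genes, 2 rose and 3 fell (median 0.07), with Slc2a8 (log2 1.17, SE 0.21, adjusted p = 8.31e-04) and Rpe (log2 0.68, SE 0.13, adjusted p = 0.00144) higher. Of 10 genes of pyruvate entry and its kinases, 2 rose and 1 fell (median 0.38): Pdk3 differed by log2 0.72, SE 0.13, adjusted p = 9.58e-04 and Pdk2, another kinase that inhibits pyruvate dehydrogenase, by log2 -1.25, SE 0.29, adjusted p = 0.00499. Of 8 genes of gluconeogenesis and glycogen, 2 rose (Ugp2, log2 0.81, SE 0.23, adjusted p = 0.0143, and Pygl, log2 1.28, SE 0.42, adjusted p = 0.0292) and 0 fell (median -0.14).

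In stimulated Tconv, against 6.69% of all genes higher and 5.16% lower, 5 of 8 serine and one-carbon genes were higher and 0 lower (median 1.49), led by Shmt1 (log2 3.68, SE 0.44, adjusted p = 2.07e-04) and Mthfd2 (log2 1.82, SE 0.21, adjusted p = 1.67e-04). Of the regulators of glucose use 3 rose and 2 fell (median -0.27), and Myc and Irf4, a transcription factor induced by the T cell receptor (log2 3.44, SE 0.66, adjusted p = 0.00426), were among those that rose. Of the further glycolysis and pentose phosphate genes 3 rose and 0 fell, including Rpe (log2 0.53, SE 0.15, adjusted p = 0.0363) and Gpd2 (log2 0.87, SE 0.25, adjusted p = 0.0388). Of the tricarboxylic acid cycle genes 1 rose (Idh3a, log2 0.91, SE 0.20, adjusted p = 0.00827), and of the cell cycle genes 0 were called. Pdk2 fell (log2 -1.52, SE 0.34, adjusted p = 0.00955), as did the HIF list's Bnip3l (log2 -1.0, SE 0.21, adjusted p = 0.00728) and Egln2 (log2 -0.53, SE 0.13, adjusted p = 0.01800) and, of the gluconeogenesis and glycogen list, Pck2 (log2 -1.10, SE 0.30, adjusted p = 0.0284) and Pygb (log2 -0.77, SE 0.23, adjusted p = 0.0471). In WT Treg no gene of these 8 lists was called after stimulation.

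The tat-cre set had 1 library in each of 4 groups and allows no test, so its values stand side by side. The library labelled FoxP3 del had Foxp3 at 266 FPKM and its no-deletion Treg control at 86.7, which goes against the label, and no direction is drawn from it. Rel was at 38.7 FPKM in the library labelled NF-kB del and 171 in the control, and Rela at 124 and 125. Markers of other cells were high here too: erythroid genes summed to 1503 FPKM in the NF-kB del library and to at most 69.7 FPKM in each of the other 3, and B cell genes to 62.0 FPKM in the FoxP3 del library, 35.7 in the NF-kB del library, 28.4 in control Treg and 1.58 in Tconv. Myeloid genes summed to 107.6 and 84.5 FPKM in the FoxP3 del and NF-kB del libraries and to 9.84 and 2.27 in control Treg and Tconv. Cell cycle genes summed to 953, 784, 527 and 361 FPKM in the same order. The part of all these genes in the values below was not tested. Tpi1 was at 16.8 FPKM in stimulated control Tconv and 53.3 in control Treg. It was at 137 in the FoxP3 del library and 85.6 in the NF-kB del library, each so labelled. As in the 21 other libraries, Tpi1 was lower in Tconv than in Treg. In the order given for Tpi1, Ldha was at 483, 434, 491 and 435 FPKM, and Hk2 at 13.3, 12.6, 13.03 and 9.63. The 4 libraries thus lay between 434 and 491 FPKM for Ldha and between 9.63 and 13.3 for Hk2. Slc16a3, the lactate exporter MCT4, was at 3.33 FPKM in Tconv and between 39.1 and 48.6 in the 3 Treg libraries. Eno3 was at 37.4 FPKM in control Treg, 36.7 and 25.01 in the libraries labelled FoxP3 del and NF-kB del, and at 3.86 in Tconv.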

How the data were processed

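RNA-seq libraries were made with an Illumina TruSeq kit, per the labels' protocols. The tools named in the submitters' processing notes are TopHat, Cufflinks and bcl2fastq, with build mm9; the sources used here give no version, annotation or strand setting. The authors deposited FPKM values per gene with confidence bounds, in 1 Cufflinks table per library and with no read counts. Here, 250 symbols with an entry not marked OK were left out and 181 symbols on several entries were summed. Depth was estimated from the confidence bounds; 72.1% to 75.7% of a library's low implied fragment numbers were whole within 0.02, so it is approximate, and no count test was run.

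Genes that reached 1 FPKM in 2 or more libraries were fitted with limma 3.58.1 (R 4.3.3) on log2(FPKM + 1) (trend, 10 group means over 21 libraries, 11 residual degrees of freedom). Benjamini-Hochberg adjusted p under 0.05 over all 11532 genes is "called". This scale understates changes of low genes. The procedure was tested on simulated data. Groups came from the labels. Deviations from group means correlated at 0.432 on average for 51 pairs of libraries of the same run, and at 0.821, 0.625 and 0.797 for the 3 pairs of p65KO and WT Treg, so that comparison is also given with the run as a block (8 residual degrees of freedom). Per comparison, the up to 5 called members with the smallest p, or 2 where none was called, are given in every library; other lists give up to 2 genes. Bpgm, Slc16a1, Eno3, Ldhb, Eno1 and Myc were added after their values were seen. The members, lists and markers (T cell, Treg, CD8 and NK, B cell, myeloid, erythroid, mast and basophil, cell cycle) were chosen with earlier results of these data known. Summed T cell markers were 561 to 1582 FPKM, and mast and basophil markers at most 11.0, in the 21 libraries. Alternatives changed the pseudocount, filter, scaling, block, samples in the fit and libraries. Proteins are not used here.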

Additional observations from a re-analysis of the deposited data

Results flagged for a closer look

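Gapdh in the 4 unstimulated WT Treg libraries was at 226, 218, 204 and 121 FPKM. The lowest, WT Treg 4, lay apart from the others by 0.834 of the range, above the 95% critical value of Dixon's test for 4 samples; 32 members were examined in that group, and chance flags about 1 in 20 of such groups. Gapdh was also lower in run 4 than in run 3 in WT Tconv, at 60.5 against 121 FPKM, and in DKO Treg, at 357 against 566 FPKM.

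The response of Hk1 to stimulation differed between WT Treg and WT Tconv by -1.70 on the log2 scale in a test of the difference itself. That of Pfkfb3 differed by -1.53. Both were lower in Treg, and in both runs each gene was higher after stimulation in Tconv.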

How the results depend on the processing

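With each library of the compared groups left out in turn, the number of called members ranged from 0 to 9 for WT Treg against Tconv, 0 to 1 for c-RelKO, 8 to 17 for DKO against WT, 3 to 8 for DKO against c-RelKO, 3 to 4 for stimulation of Tconv, 0 to 1 for that of DKO Treg, 1 to 2 for stimulated Treg against Tconv, 10 to 12 for stimulated DKO against WT and 0 to 2 for the difference of the Treg and Tconv responses. It stayed at 0 for p65KO, stimulation of WT Treg, both stimulated single knockouts and the difference of the DKO and WT responses. Calls over all genes changed between these fits as well. For DKO against WT they were 3338 of 11524 without WT Treg 3 and 4635 of 11424 without WT Treg 1.

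With the run as a replicate block the counts were 18 for Treg against Tconv, 12 for p65KO, 15 for c-RelKO, 18 for DKO against c-RelKO, 18 for stimulation of Tconv, 12 for that of DKO Treg, 11 for stimulated Treg against Tconv, 26 for stimulated DKO against WT, 13 and 2 for stimulated p65KO and c-RelKO, and 5 and 2 for the Treg and DKO response differences. For DKO against WT the block called 21 members, 17 higher and 4 lower, against 4280 and 2782 of 11532 genes. Those not called without the block were Aldoc, Eno1, Gpi1, Hk1, Slc16a1 and Taldo1. Shares over all genes for the other block counts are given with each comparison above. Among values that had not passed for DKO against WT, the block turned Slc2a3 to 0.25, Pfkm to 0.31, Pfkfb3 to 0.050, Pdk1 to 0.27 and Pdha1 to 0.032. Fitting only the groups compared gave 1 for Treg against Tconv (373 of 10746 genes called) and 14 for stimulation of Tconv (3991 of 10148). It gave 2 for DKO Treg (792 of 10434) and 8 for stimulated Treg against Tconv (2556 of 10263). The Treg response difference had 0 in such a fit (50 of 10875). Size factors gave 7 for Treg against Tconv (1582 of 11499), 2 for c-RelKO (1095) and 2 for stimulation of DKO Treg (1000). Without a filter on low values the Treg response difference had 0.

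The remaining alternatives were chosen after seeing the data. Without the 3 libraries high in markers of other cells the counts were 12 for Treg against Tconv and 2 for p65KO; with the run as a block as well they were 22 for Treg against Tconv, 19 for c-RelKO, 23 for DKO against WT, 17 for DKO against c-RelKO, and 8 and 2 for the Treg and DKO response differences. With runs 3 and 4 only the counts were 11 for Treg against Tconv, 5 for c-RelKO, 11 for stimulation of Tconv and 7 for that of DKO Treg. They were 9 for stimulated Treg against Tconv, 23 for stimulated DKO against WT, and 4 and 2 for the Treg and DKO response differences. For stimulated p65KO and c-RelKO, with 1 library each, the members' median was 0.41 and 0.14, against 0.15 and -0.06 over all genes. Over all 11326 genes, 2443 passed for Treg against Tconv and 488 for p65KO without the 3 libraries. With the block as well, 5801 passed for Treg against Tconv and 7405 for DKO against WT. For the Treg and DKO response differences 2249 and 2084 genes passed in that fit. Runs 3 and 4 only called 3805 of 11270 genes for Treg against Tconv and 2805 for c-RelKO. The same runs called 3600 for stimulation of Tconv, 3479 for that of DKO Treg and 6111 for stimulated DKO against WT. They called 2897 for stimulated Treg against Tconv, and 514 and 479 for the Treg and DKO response differences. Runs 3 and 4 only, as well as the block without the 3 libraries, turned Slc2a3 to 0.21, Pfkm to 0.39, Pfkfb3 to 0.21, Pdk1 to 0.35 and Pdha1 to 0.028. Without the 3 libraries Pfkfb3 was at 0.022, and Bpgm in c-RelKO at -0.13. The cause of these changes was not tested. With each library left out in turn, the signs of 5 values that had not passed also turned: Bpgm in c-RelKO ranged from -0.23 to 3.08, Pfkfb3 in DKO from -0.23 to 0.022, Pfkl in DKO from -0.12 to 0.78, Pfkm in DKO from -0.79 to 0.16, and Pfkfb3 in WT Treg stimulation from -0.065 to 0.33. Other named values kept their sign. Of all values of named members under alternatives, 921 kept their sign and side of the threshold, 92 lost it, 50 gained it and 22 changed sign. Low implied fragment numbers limit Hk2, Pfkm, Pfkfb4, Aldoc, Eno1 and Eno3, and in the tat-cre set also Ldhb.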
